A study of Mus musculus with 9 samples.

Results

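The clustered protocadherins of the mouse were followed in peak lists of N6-methyladenosine (m6A) from wild-type mouse embryonic stem cells (mESCs). Members were the protein-coding genes on chromosome 18 of mm10 (GRCm38) whose symbols place them in the alpha, beta or gamma cluster, and they numbered 57 of 21900 protein-coding genes in the RefSeq table. Alpha had 14 members, beta 22 and gamma 21. They were selected by name, but the family was picked because peaks over it were already known from these lists, so every value is a description without a test. The assay was m6A-RIP-seq, in which an antibody against m6A pulls down RNA fragments before sequencing. There were 9 libraries of wild-type, Mettl3KO and Zc3h13KO mESCs, 2 immunoprecipitations and 1 input per genotype, of which the peaks called in both wild-type immunoprecipitations are described, and the other 7 libraries were not analysed here. All these cells carry the background given in the labels as "Rosa26:CRE, Bir ligase", and the wild-type cells have no knockout. The immunoprecipitations used the rabbit polyclonal anti-m6A antibody of Synaptic Systems, and no source used here states that the replicates came from separate cultures.

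Clustered protocadherins are cell adhesion proteins with extracellular cadherin repeats, best known for giving single neurons distinct surface identities. In the alpha and gamma clusters each member has its own promoter and its own large first exon, the variable exon, which encodes the extracellular, transmembrane and proximal cytoplasmic part. That exon is spliced to a short set of constant exons shared by the whole cluster, which encode the common cytoplasmic end. Beta members lack constant exons and are mostly encoded by a single exon. The C-type members Pcdhac1, Pcdhac2, Pcdhgc3, Pcdhgc4 and Pcdhgc5 lie closest to the constant exons and are regulated differently from the other variable exons. Pcdhga and Pcdhgb members are interspersed along the gamma cluster. m6A is installed on mRNA by the Mettl3-Mettl14 methyltransferase with its associated factors, and is commonly found in long internal exons and near stop codons.

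The gene table gave the ends of gene bodies, but neither strand nor exons. The 21 gamma members ended within 10 bp of one another and began at different coordinates, and the 14 alpha members ended within 1240 bp. Each gene body of alpha and gamma therefore overlaps those of its neighbours, and 1 peak near the shared end belongs to all of them. To give each summit to 1 member, a summit was counted on a variable-exon stretch if it lay within 3000 bp above the lower coordinate of the nearest member below it, or inside the gene body for beta. The stretch stands in for the variable exon and is not its annotated extent. The summit nearest to the limit on its inner side lay 2917 bp above the start of Pcdhga10, and the nearest outside lay 3101 bp above the start of Pcdhga3. The stretch from 3000 bp above the start of the last member to the shared end was called the constant region, which covered introns as well as the constant exons.

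Replicate 1 had 22531 peaks in all and replicate 2 had 5040, with median fold enrichments over input of 5.39 and 6.35. The lists hold no read counts, so the depth of the libraries is unknown. Peak names within the list of replicate 1 carry a sample name that does not mention wild-type cells, so counts and fold enrichments are given for each replicate by itself. The doubt remains for every value below that combines the 2 lists, such as members with a peak in both and shared peaks. Members of the clusters are similar in sequence, and the sources used here do not state what was done with reads that align to more than 1 place. A peak on 1 member could therefore hold reads of another, and this part in the results was not tested. The lists measure enrichment over input and not expression, so a member without a peak may not be expressed. Whether these peaks are lost in Mettl3KO cells was not examined, so a peak here means enrichment by the antibody. Of 5 stem cell markers, Nanog, Sox2, Zfp42 and Esrrb had a peak in replicate 1, Pou5f1 had none, and 0 had one in replicate 2. Their highest fold enrichments were 1.67 at Nanog, 1.27 at Sox2, 1.88 at Zfp42 and 11.8 at Esrrb. All but that of Esrrb lay below 2.04, the 5th percentile of the list. Of 3 neuronal markers, Tubb3 (2.18) and Rbfox3 (3.47) had one in replicate 1 and Map2 had none, and 0 had one in replicate 2. Of all protein-coding genes, 41.3% had a peak in replicate 1 and 16.9% in replicate 2.

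The gamma cluster carried dense m6A peaks, whereas the alpha and beta clusters carried few. Replicate 1 had 55 distinct peaks over the clusters, of which 47 lay over gamma, 6 over beta and 2 over alpha. Replicate 2 had 13, of which 12 lay over gamma, 1 over beta and 0 over alpha. These were 7.95% of the peaks of chromosome 18 in replicate 1 and 9.63% in replicate 2. The gamma cluster, at chr18:37661775-37841873, is also the shortest of the 3, with 180099 bp against 258613 bp for alpha and 256422 bp for beta.

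With peaks counted up to 500 bp from the gene body, 39 of 57 members had a peak in replicate 1, 20 in replicate 2 and 20 in both. Of all protein-coding genes this held for 41.3% in replicate 1, 16.9% in replicate 2 and 16.1% in both. The 20 members were 19 of 21 gamma members and Pcdhb17, which is 90.5% of gamma, 4.55% of beta and 0 of 14 alpha members. Since overlapping gene bodies share peaks, these counts say little about single members. When each summit was given to 1 variable-exon stretch, 26 of 57 members had a summit in replicate 1 and 9 of 57 had one in both replicates. Over the whole family these counts lie near the 41.3% and 16.1% of all protein-coding genes. Those shares count peaks up to 500 bp from whole gene bodies, so the measures are unlike. The 26 were the 21 gamma members, 4 beta members and Pcdhac2. The 9 were Pcdhga2, Pcdhga3, Pcdhga4, Pcdhga7, Pcdhga10, Pcdhga12, Pcdhgb5, Pcdhgc3 and Pcdhb17. The other 31 members, 13 of alpha and 18 of beta, had no summit on their stretch in either list.

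**Figure D1:**
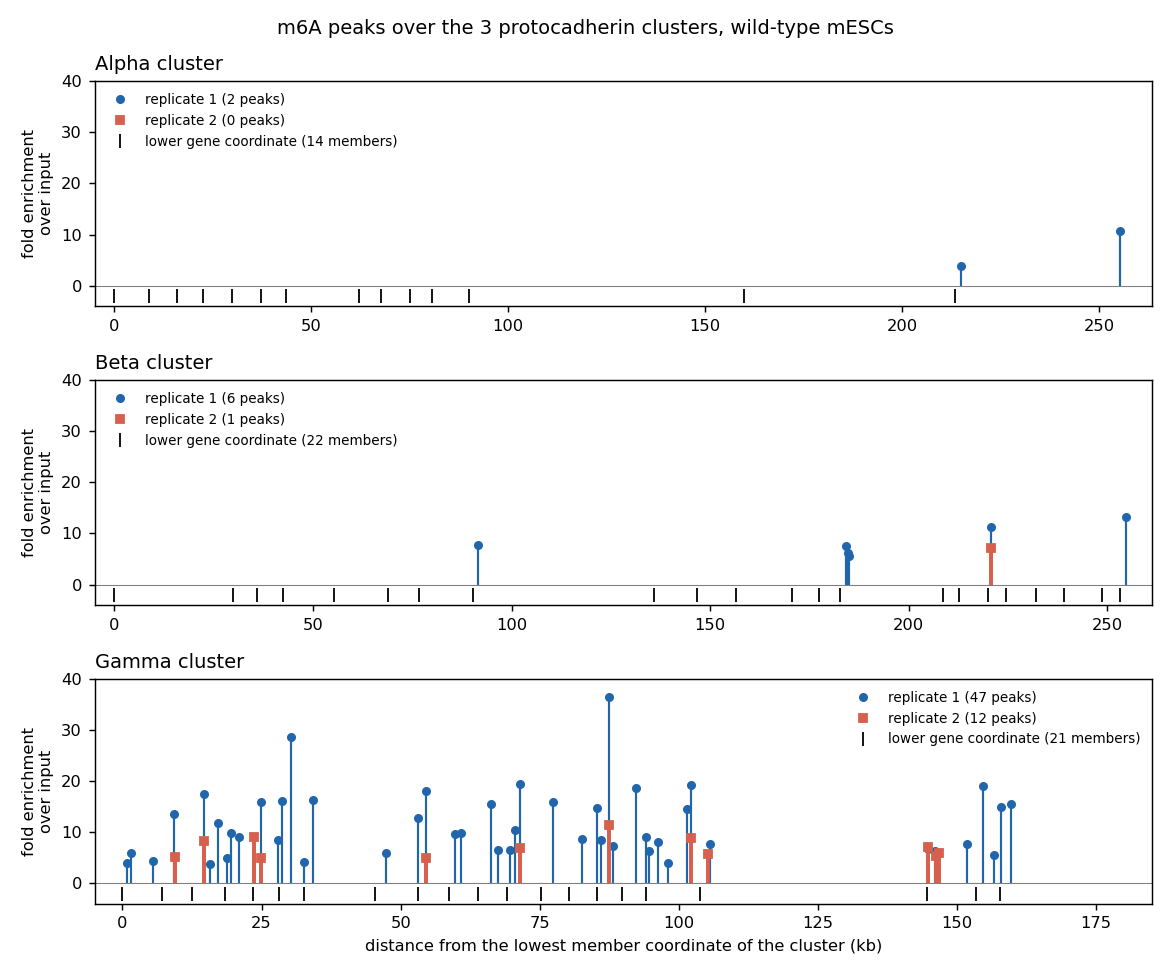
Fold enrichment of each m6A peak over input (vertical axis) against the distance of its summit from the lowest member coordinate of the cluster in kb (horizontal axis), for the alpha, beta and gamma clusters. Blue circles are replicate 1, red squares replicate 2 and black ticks the lower coordinates of the members; 47 of 55 peaks of replicate 1 and 12 of 13 of replicate 2 stand over gamma, and the constant region of gamma holds 0.

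In the gamma cluster the peaks lay on the variable-exon stretches. In replicate 1, 37 of 47 summits lay on such a stretch, or 78.7%. The 95% exact binomial limits of 64.3% and 89.3% cover counting error only and treat summits on the same stretch as independent. The stretches make up 35.0% of the cluster. That is not an expected share, since the RNA was selected as mRNA and the length of the cluster includes introns. Peaks of replicate 1 covered 63.6% of the length of the stretches, 9.01% of the sequence between them and 0% of the 19328 bp of the constant region. In replicate 2, 11 of 12 summits were on a variable-exon stretch, and peaks covered 9.08% of the stretches and 0% of the constant region. The stretches of beta were covered to 4.81% in replicate 1 and 0.874% in replicate 2, and those of alpha to 0.805% and 0%. A median of 65.6% of the stretch of a gamma member was covered in replicate 1, from 9.97% at Pcdhga6 to 99.6% at Pcdhgb7, and 15 of 21 members were covered over more than 50%.

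Pcdhga10 (gene ID 93722) held the strongest peak of the family in both replicates. In replicate 1 it ran over chr18:37748146-37749519 at 36.4-fold enrichment, the 45th highest of the list, and its −log10 q was 180.3. In replicate 2 it ran over chr18:37748321-37749359 with 11.4 and 14.6. The summits were 4 bp apart, 2156 bp and 2152 bp above the lower coordinate of the gene. Replicate 1 had 3 more peaks on this stretch, with summits 28 bp, 717 bp and 2917 bp above the start and fold enrichments of 14.8, 8.44 and 7.22. No other gamma member had 4 summits on its stretch, while 3 had 3, 7 had 2 and 10 had 1.

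Pcdhgb2 (gene ID 93700) came next in fold enrichment, at 28.6 for a peak of 468 bp whose −log10 q was 128.1, yet replicate 2 had 0 peaks on its stretch. Pcdhgb5 had 19.4 in replicate 1 and 6.85 in replicate 2, with summits 3 bp apart. At Pcdhga7 the values were 18.01 and 5.03, with summits 2 bp apart, and at Pcdhga3 they were 17.5 and 8.20, with summits 7 bp apart. These 3 members show the same site in each list, at a lower fold enrichment in replicate 2. Such closeness was not particular to the clusters. Summits lay within 10 bp in 6 of 13 cluster pairs (46.2%, median distance 32 bp), against 51.7% of pairs elsewhere (median 9 bp). Pcdhgb7 had 18.7 in replicate 1 and no peak on its stretch in replicate 2, although its peak of replicate 1, with a −log10 q of 135.2, was the second most significant over the clusters.

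The widest peak of the family lay over Pcdhga4. In replicate 1 it ran over chr18:37684415-37687845, which is 3431 bp and the 31st widest of the list, at 15.9-fold enrichment, and its −log10 q was 130.6. It began 822 bp below the annotated start of the gene. Replicate 2 had 2 separate peaks inside it, with summits 141 bp and 1429 bp above the start and fold enrichments of 9.10 and 4.96. Pcdhga2 was covered by a peak of 2685 bp in replicate 1, with a fold enrichment of 13.6, inside which replicate 2 had a peak of 388 bp with 5.09. Pcdhga12, the last A-type member, was covered by a peak of 2873 bp with 7.69, and replicate 2 had 5.79 there.

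The remaining A-type and B-type members had summits on their stretch in replicate 1 only. Their highest fold enrichments were 16.2 at Pcdhga5, 15.8 at Pcdhga9, 15.5 at Pcdhga8, 9.82 at Pcdhgb4, 9.79 at Pcdhgb1, 8.96 at Pcdhga11 and 8.74 at Pcdhgb6. The first member, Pcdhga1, had 5.93, and Pcdhga6 had the lowest value, 5.84, from a single peak of 299 bp. Over all 21 members the highest peak of replicate 1 had a median fold enrichment of 15.5, and 13 members reached 10. The A-type members had a median of 15.7 (5.84 to 36.4, 12 members) and the B-type members 14.2 (8.74 to 28.6, 6 members), so their ranges overlapped.

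Over all 37 gamma summits of replicate 1 on a variable-exon stretch, positions were spread evenly, with 12 less than 1000 bp above the start, 12 from there to below 2000 bp and 13 above that. In replicate 2 the counts were 2, 4 and 5. When the highest peak alone was taken, in 10 of 21 gamma members that of replicate 1 had its summit 2019 bp to 2410 bp above the start. These were Pcdhga2, Pcdhga3, Pcdhga8, Pcdhga9, Pcdhga10, Pcdhgb2, Pcdhgb4, Pcdhgb5, Pcdhgb6 and Pcdhgb7. In 9 members it lay 1100 bp to 1984 bp above the start, and at Pcdhga11 and Pcdhgc3 it lay 21 bp and 105 bp above it. In replicate 1 the last peak on a stretch ended 2144 bp to 3261 bp above the start, with a median of 2549 bp, and in 16 of 21 members between 2400 bp and 2900 bp. In replicate 2 it ended 1630 bp to 2512 bp above the start with a median of 2277 bp, and in that window in 2 of 8 members. Of the 8 gamma members with a summit in replicate 2, Pcdhga2, Pcdhga3, Pcdhga10, Pcdhgb5 and Pcdhgc3 had one at least 2000 bp above the start, at 2224 bp, 2012 bp, 2152 bp, 2207 bp and 2071 bp. These windows were chosen after the positions had been seen. At the other end of the stretch, the first peak of replicate 1 began below the annotated start in 9 of 21 members.

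**Figure D2:**
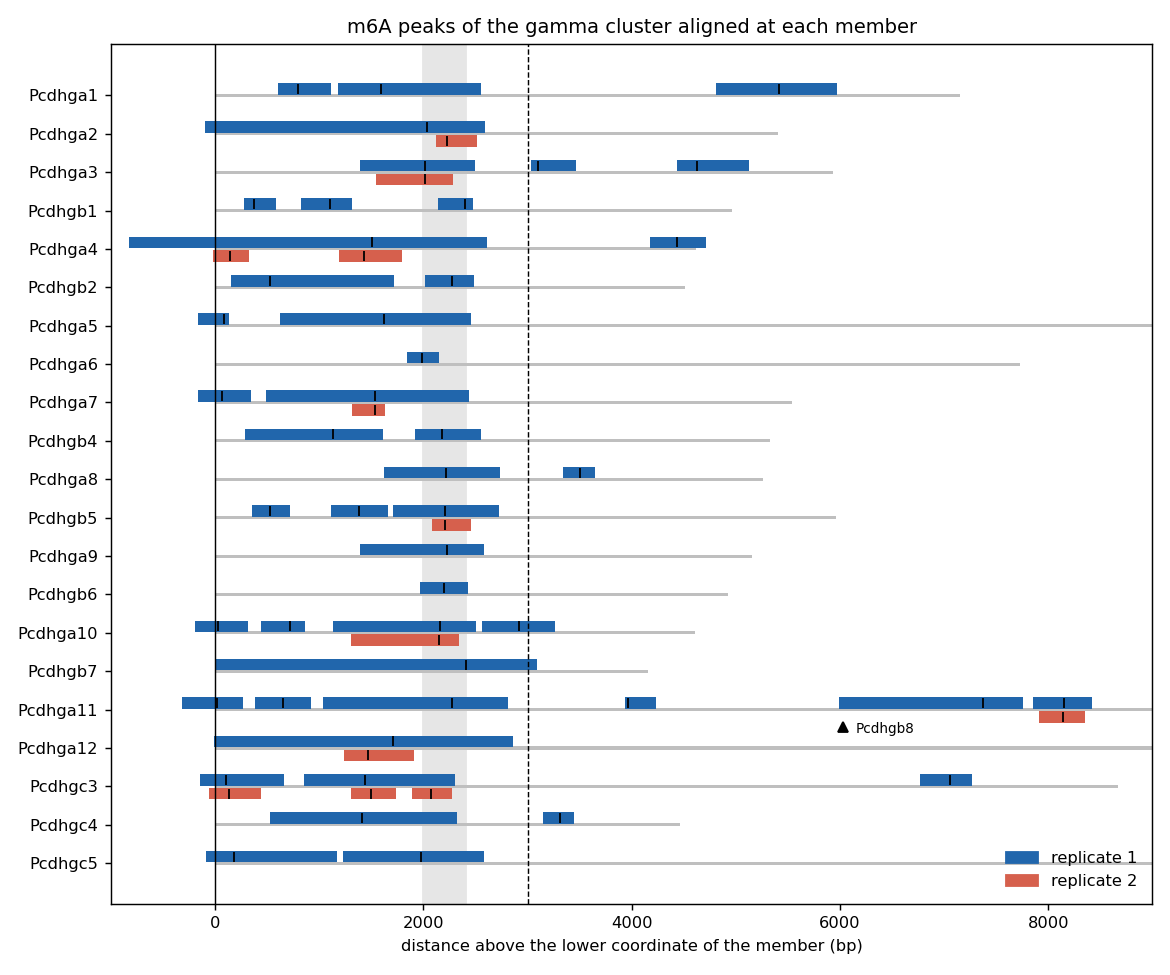
Peaks of the gamma cluster aligned at the lower coordinate of each of 21 members, in bp above it, in the order of the cluster. Blue bars are peaks of replicate 1, red bars peaks of replicate 2, black marks their summits, grey lines run to the next member or to the shared end (cut at the edge of the plot), the dashed line is the 3000 bp limit of a stretch, the shaded band covers 2000 bp to 2410 bp, and the triangle marks the start of the pseudogene Pcdhgb8; the highest peak of 10 members has its summit in the band.

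Of the 10 gamma summits of replicate 1 outside the stretches, 2 lay within 3000 bp above the start of Pcdhgb8. This transcribed pseudogene starts between Pcdhga11 and Pcdhga12 and is not a member. Its gene body runs on to chr18:37840489, so it also holds the outside summits above Pcdhgc3 and Pcdhgc4, counted here among the other 8. The 2 summits near its start were 1348 bp and 2119 bp above it, with fold enrichments of 14.5 and 19.1. Replicate 2 had a peak at the second with 8.91 and a summit 3 bp away. The other 8 had fold enrichments of 3.80 to 11.9 and were in replicate 1 only. The highest of these lay 4631 bp above the start of Pcdhga3, 1306 bp below that of Pcdhgb1. Another, with 8.50, had its summit 189 bp below the start of Pcdhgb2 and reached into that gene.

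The 3 C-type gamma members differed among themselves. Pcdhgc3 (gene ID 93706) had 2 peaks on its stretch in replicate 1, at chr18:37806268-37807071 with a fold enrichment of 6.64 and at chr18:37807268-37808713 with 6.27. The latter had a −log10 q of 132.5, the third highest over the clusters, although its fold enrichment was below the median of 9.02 for cluster peaks. Replicate 2 had 3 peaks there, with 7.09, 5.25 and 5.89. On the log2 scale, replicate 1 over replicate 2, the 3 pairs at Pcdhgc3 differed by -0.09, 0.25 and 0.09, the smallest differences of the 13 pairs. They were also the pairs with the lowest fold enrichments in replicate 1, and 2 of them share a peak of replicate 1. Pcdhgc4 had 19.1 and Pcdhgc5 14.9 and 15.5 in replicate 1, and both had 0 peaks within 500 bp of the gene body in replicate 2. Pcdhgc5 is the last member, and above its peaks, up to the shared end, 0 peaks were listed in either replicate.

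Every one of the 13 cluster peaks of replicate 2 overlapped a peak of replicate 1 (100%, exact binomial interval 75.3% to 100%), against 92.0% of its peaks elsewhere. In the other direction, 11 of 55 cluster peaks of replicate 1 (interval 10.4% to 33.0%) overlapped a peak of replicate 2, against 19.1% elsewhere. These shares count an overlap of 1 bp, which is easily reached where peaks are dense. Peaks of replicate 1 covered 63.6% of the gamma stretches. Where each peak had to cover at least 50% of the other, the share of replicate 2's cluster peaks was 38.5% (5 of 13, interval 13.9% to 68.4%), against 57.9% elsewhere. With summits at most 100 bp apart it was 69.2% (9 of 13), against 74.6% elsewhere. The values for peaks elsewhere at these settings were added after seeing the data. The gamma peaks found again had a median −log10 q of 94.9 in replicate 1 (36.5 to 180.3, 10 peaks) and the others 25.2 (4.62 to 135.2, 37 peaks), so the groups overlapped. In 12 of 13 pairs the fold enrichment was higher in replicate 1, by a median of 1.09 on the log2 scale, and in 4627 pairs outside the clusters the median difference was -0.02. Outside the clusters, the 1217 pairs in which replicate 1 reached 10 had a median difference of 1.01, and the 9 such pairs of the clusters 1.42. The 2 peaks of replicate 2 at Pcdhga4 share a partner in replicate 1, as do 2 of those at Pcdhgc3, so the 13 pairs involve 11 peaks of replicate 1.

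**Figure D3:**
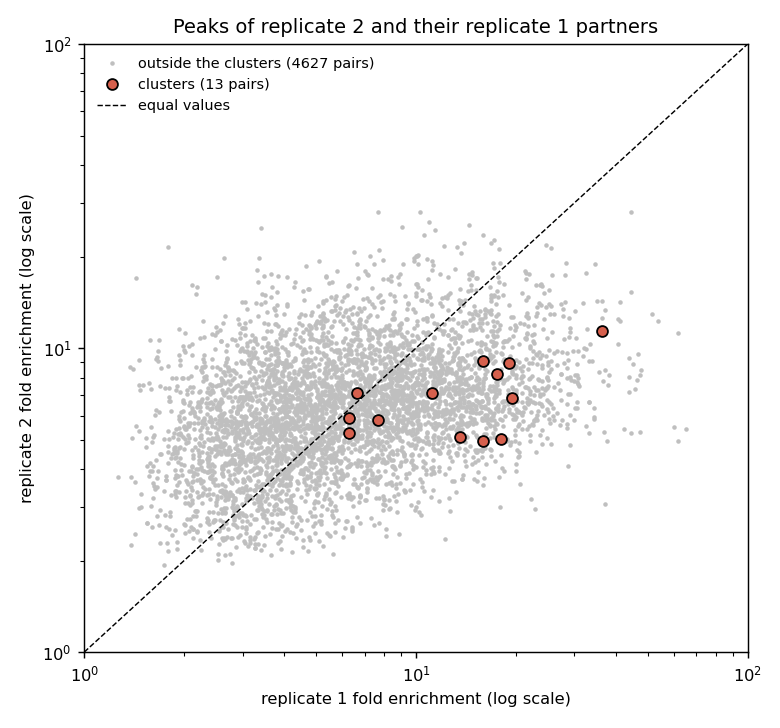
Fold enrichment of each replicate 2 peak (vertical axis, log scale) against that of the replicate 1 peak it overlaps most (horizontal axis, log scale). Grey dots are 4627 pairs outside the clusters, red circles the 13 pairs of the clusters and the dashed line equal values; 12 of the 13 lie below the line, among grey dots of similar replicate 1 value.

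Peaks over gamma were higher and wider than those of the whole list of replicate 1. Their median fold enrichment was 9.71 (3.80 to 36.4) against 5.39 for all peaks, and their median width 685 bp against 445 bp. A fold enrichment of at least 10 was reached by 44.7% of gamma peaks and 15.4% of all peaks, and a width of at least 1000 bp by 44.7% and 13.6%; both limits were chosen after the values had been seen. In replicate 2 this was not so. The median fold enrichment over gamma was 6.37 there (4.96 to 11.4) against 6.35 for all peaks, and the median width 440.5 bp against 446 bp.

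**Figure D4:**
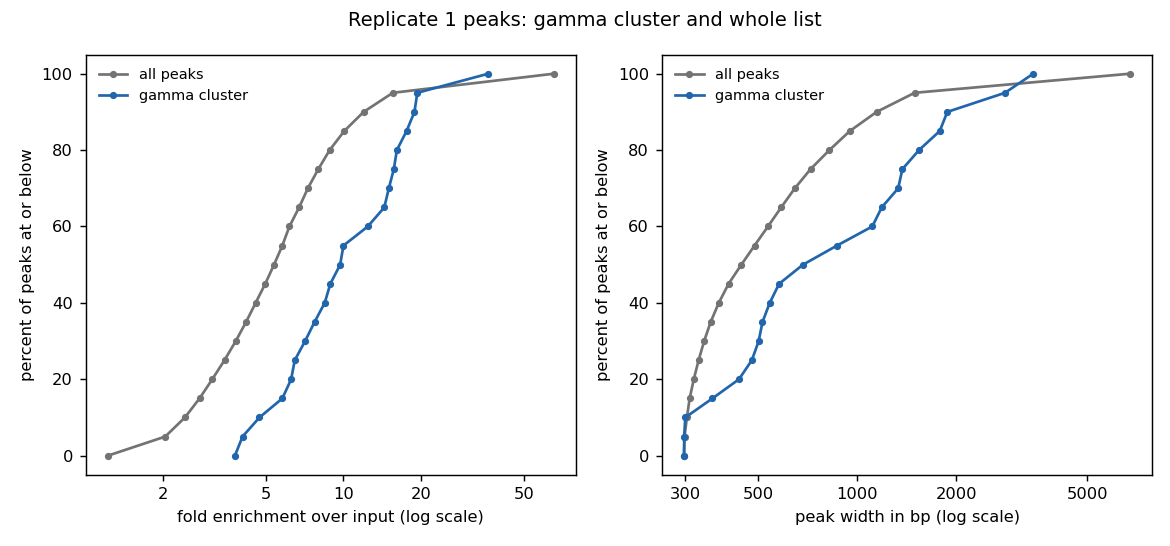
Percent of replicate 1 peaks (vertical axis) at or below a given fold enrichment over input (left, log scale) and width in bp (right, log scale), in steps of 5 percentiles. Blue is the gamma cluster with 47 peaks and grey the whole list of 22531; the gamma median is 9.71 against 5.39 for fold enrichment and 685 bp against 445 bp for width.

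The alpha cluster had 2 peaks, both in replicate 1. The one with the higher fold enrichment, 10.7 with a −log10 q of 29.6, ran over chr18:37185240-37185980 in the constant region. Its summit lay 1949 bp below the end shared by 8 of 14 members, so it was assigned to all 14. The gamma constant region had no such peak. The other, with 3.80 and 3.92, had its summit 1529 bp above the start of Pcdhac2, a C-type member. Pcdhac1, the other C-type member of alpha, and Pcdha1 to Pcdha12 had 0 summits on their stretches.

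The beta cluster had peaks at 4 of 22 members, which is 18.2% against the 41.3% of all protein-coding genes in replicate 1. Pcdhb17 (gene ID 93888) was found in both replicates. Its peak ran over chr18:37485400-37486434 with a fold enrichment of 11.2 in replicate 1 and over chr18:37485434-37486094 with 7.14 in replicate 2, and the summits were 6 bp apart. In replicate 1 only, Pcdhb22, the last beta member, had the highest fold enrichment of the cluster, 13.3, Pcdhb8 had 7.77, and Pcdhb14 had 3 peaks with 7.45, 6.16 and 5.51. All 6 summits lay 670 bp to 2238 bp above the start of gene bodies that measure 2340 bp to 5271 bp over the cluster. The first member, Pcdhb1, and 17 others had no peak in either replicate.

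Of 12 non-clustered protocadherins, which are single genes outside the clusters, 4 had a peak in replicate 1 and 1, Pcdh1, in both. Pcdh1 had 5 peaks in replicate 1, the highest at 10.1-fold enrichment, and 1 in replicate 2 at 4.25. Pcdh19 reached 24.3, Pcdh8 13.9 and Pcdh18 7.91, all in replicate 1 only. Of 20 cadherins outside the protocadherin family, 7 had a peak in replicate 1 and 2, Cdh4 and Cdh24, in both. Cdh4 had 18.4 and 16.3, and Cdh24 had 10.04 and 11.6. The background was 41.3% of all protein-coding genes in replicate 1 and 16.1% in both replicates, and the lists were not tested against it.

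Among 14 genes for promoter choice and silencing at the clusters, which include the insulator protein Ctcf, cohesin and DNA methyltransferases, 6 had a peak in replicate 1 and 0 in replicate 2. The 6 were Stag1, Nipbl, Wapl, Dnmt1, Dnmt3a and Setdb1, with Dnmt3a highest at 14.5. The count in replicate 1 is close to the 41.3% of all protein-coding genes, and the share of all protein-coding genes in replicate 2 was 16.9%, with no test. Of 10 signalling partners of the cytoplasmic domains, 5 had a peak in replicate 1 and 2 in both. These were Ptk2b, a focal adhesion kinase family member, with 24.4 and 7.26, and Cyfip2, a subunit of the WAVE complex, with 10.4 and 10.5. Both counts lie near the background of 41.3% in replicate 1 and 16.1% in both replicates, with no test.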

How the data were processed

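The data used were m6A-RIP-seq peaks of 2 replicates of wild-type mESCs. The authors called peaks with MACS2 at default parameters, each replicate against input and without pooling; the submitters' processing notes also name Bowtie, SAMtools and mm10. Each deposited peak has a fold enrichment (a ratio over input), a −log10 p-value and a −log10 q-value; the deposited score is a rounded copy of the latter and was not used. Versions, the input used and the treatment of duplicates and strand are not given in the sources used here. The series has 1 wild-type input, so both lists may rest on the same input and may not be independent.

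Peaks were joined to RefSeq gene bodies of GRCm38, printed from 1, within 500 bp, as in the study. Each peak over the clusters was counted once and placed by its summit. Peaks overlapping by at least 1 bp were called shared, and a peak's partner was the one it overlapped most. Depth is unknown, and 95% exact binomial intervals cover counting error only. Overlap and placement were tested on simulated data. The members, gene lists and windows were chosen with earlier results of these data known. Named were members with a peak in both lists, C-type members, those with the highest fold enrichment, the first and last of each cluster, other genes in the clusters with a peak and genes of other lists with a peak in both replicates; further members and list genes were named after their values were seen. Scripts ran under Python 3.11.15 (pandas 2.3.3, numpy 2.4.6, matplotlib 3.10.9, scipy 1.17.1).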

Additional observations from a re-analysis of the deposited data

How the results depend on the processing

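Of 35 values recomputed under other settings, 27 stayed within 1.5 times the reported count, the binomial interval of the reported share or 1 SD between replicates for medians. That tolerance is wide, since it includes 9 in place of 13 cluster peaks of replicate 2 at a −log10 q of at least 5, 7 in place of 10 members with a summit in both lists, and 76.9% in place of 100% shared peaks with replicate 1 reduced. Using 1 replicate alone, members with a peak numbered 20 to 39, and those with a summit on the segment up to the next member 10 to 26, against 10 in both lists. Cut to as many top peaks as replicate 2 has, replicate 1 kept 14 cluster peaks with a median fold enrichment of 16.2. The share of replicate 2's cluster peaks found in replicate 1 fell to 38.5% with a reciprocal overlap of 50%, and to 69.2% where summits had to be at most 100 bp apart. Summits of replicate 1 on variable-exon stretches, 80.0% over the clusters, were 56.4% with stretches of 2000 bp and 90.9% with 5000 bp, as shorter or longer stretches imply. Giving Pcdhgb8 a segment of its own, added after seeing the data, left 9 in place of 10 members with a summit on their segment in both lists. No paired analysis was possible because the values come from 1 genotype, without a comparison of groups. With 2 samples, neither could be examined for standing apart. Exon coordinates were not used, so no summit was placed on an annotated exon.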

Other observations

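Between the beta and gamma clusters, replicate 1 had 3 peaks and replicate 2 had 1, none of them counted above. The largest ran over chr18:37655921-37658173 in replicate 1, ending 3602 bp below the start of Pcdhga1, with a width of 2253 bp, a −log10 q of 109.3 and a fold enrichment of 10.8. Replicate 2 had a peak of 632 bp inside it, with 7.05. The gene bodies of the table over this site are those of Gm37013, Gm38666 and Gm38667, long gene models that start inside the alpha cluster and end with the gamma cluster; the table also lists them as Pcdha4-g, Pcdha6-g and Pcdha7-g. A second peak of replicate 1 ended 973 bp below Pcdhga1, with 4.19, and the third lay on Slc25a2, a mitochondrial carrier gene, with 3.18. Taf7, the neighbour of Slc25a2, had no peak in either replicate.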
